A study of Mus musculus with 9 samples.

Results

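Plasmacytoid dendritic cells (pDCs) carry messenger RNA of several genes that are better known from T and B lymphocytes. The 10 such genes examined here were *Cd4*, *Cd8a*, *Cd8b1*, *Ly6d*, *Cd79b*, *Blnk*, *Ighm*, *Dntt*, *Rag1* and *Ptcra*. They were taken by symbol from the 52550 genes of the expression values of A/A replicate 1, and all 10 symbols were found once. In the RNA-Seq experiment, splenic pDCs sorted as CD11c-int SiglecH+ PDCA1+ cells were stimulated for 12 hours with R848, a TLR7/-8 ligand. The pDCs came from mice that were WT (G/G), heterozygous (G/A) or homozygous (A/A) for a knocked-in *Ncf1* allele that puts histidine in place of an arginine of NCF1, in a line whose founders were bred to C57BL/6J. All groups received R848. The knockin is in the germ line, so every cell of a knockin mouse carries it, and the methods give female mice aged 10 to 12 weeks for all experiments. Each of the 3 genotypes had 3 samples. Only A/A replicate 1 was used, with 8 libraries not analysed here, so no genotypes were compared, no test was made and no value has a replicate error.

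pDCs arise from progenitors that can also give rise to lymphocytes, and the E protein TCF4 (E2-2), a relative of the E proteins of T and B cell development, is needed for their identity. In T cells, CD4 and the CD8 chains are coreceptors that bind MHC molecules beside the T cell receptor. In B cells, the IgM heavy chain signals through CD79A and CD79B to the adaptor BLNK. RAG1 and RAG2 cut DNA to assemble antigen receptor genes, TdT (*Dntt*) adds bases at the joints, and the pre-T alpha chain (*Ptcra*) pairs with a newly assembled T cell receptor beta chain. Rearranged immunoglobulin heavy chain segments and some of these transcripts are known from murine pDCs.

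The library held 31408298 reads on 17664 genes with reads. Levels are given as CPM, reads per 1000000 of that total. Their Wilson 95% confidence intervals cover counting error only, since the reads carry no molecular identifiers and PCR copies of a molecule were counted apart. Levels of different genes are compared as reads per kilobase of exon, and coordinates are those deposited, on GRCm38. The label of the cells was set beside 12 pDC markers. Of these, 11 had at least 3 reads, against 31.0% of all genes and 55.5% of protein-coding genes. The median of the 12 was 338 CPM, and *Cd209d* was listed at 0. Conventional DC markers and macrophage and monocyte markers also had at least 3 reads for 7 of 8 genes each. Their medians were 20.4 and 9.17 CPM. *Siglech* had 374 CPM, *Tcf4* 358 and *Bst2*, which encodes PDCA1, 1657. *Siglech* and *Bst2* encode proteins by which the cells were sorted, so their levels are no separate check of the label. The Y-linked gene *Ddx3y* had 102 CPM and *Xist*, the X-inactivation RNA of female cells, was listed at 0, which goes against the sex given in the methods for this library. Its part in the results below was not tested. A listed 0 is read with care, because *Xrcc5*, which encodes the Ku80 protein used by every cell, was also listed at 0. In families of ubiquitous genes, 2 of 79 ribosomal protein genes, 2 of 39 proteasome genes and 0 of 12 RNA polymerase II genes were listed at 0. Those 4, *Rpl10l*, *Rpl39l*, *Psma8* and *Psmb11*, are known as tissue-restricted relatives of the ubiquitous genes. The families were not chosen for low levels, so they cannot show whether a low gene's listed 0 is a true count. Of 21819 protein-coding genes, 12201 had reads and 12108 had at least 3, so very few had reads below that number. Whether low counts had been set to 0 was not tested.

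The 10 lymphoid genes spanned the range of expression. By CPM, *Ighm* and *Ly6d* stood among the genes with the most reads, and *Cd8a* and *Blnk* were high. *Cd8b1* and *Cd4* were intermediate, *Cd79b*, *Ptcra* and *Dntt* low, and *Rag1* was listed at 0. Per kilobase of exon, *Cd8b1* (percentile 88.3) stood near *Blnk* (90.0), and *Cd79b* (55.2) lay above the median. At least 3 reads were found for 9 of the 10, against 31.0% of all genes and 55.5% of protein-coding genes. The same shares stand beside each count of list genes with at least 3 reads given below. Above the median of genes with reads, 6.34 CPM, were 6 of the 10, against 16.8% of all genes and 38.3% of protein-coding genes. The 10 genes held 0.425% of all reads, and *Ighm* and *Ly6d* together held 86.7% of those. In a bulk library, a few cells with much of an RNA and many cells with little of it cannot be told apart.

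**Figure D1:**
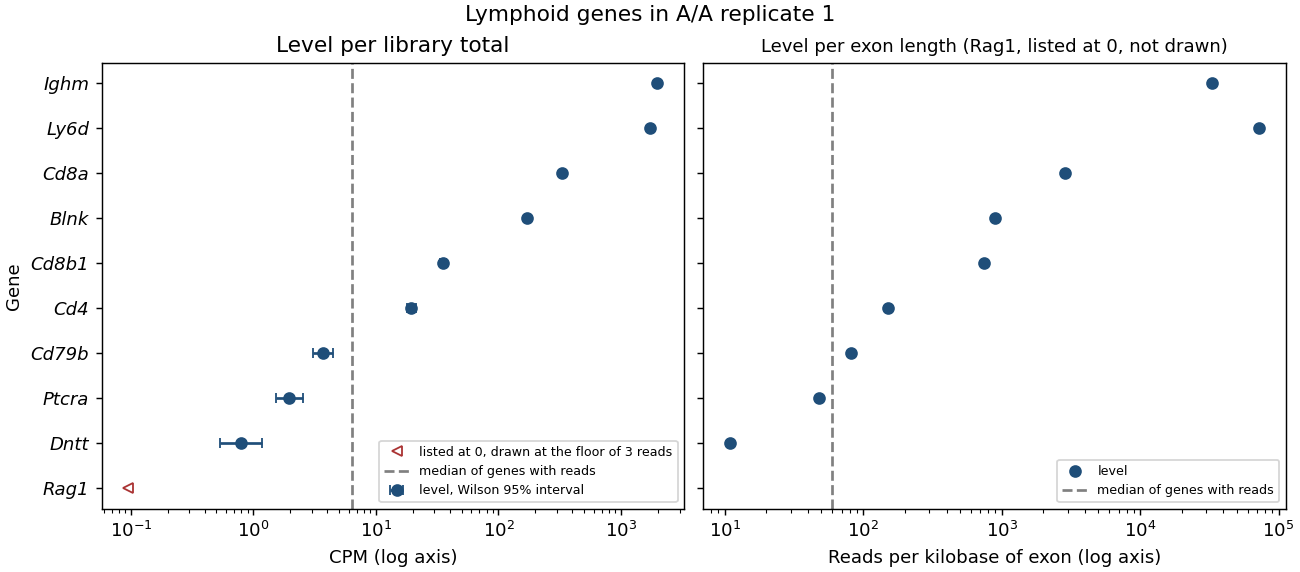
Levels of the 10 lymphoid genes in A/A replicate 1, as CPM with Wilson 95% intervals (left) and as reads per kilobase of exon (right), both on log axes. *Ighm* had 1974 CPM and *Dntt* 0.796, *Rag1* is drawn as an open triangle at the floor of 3 reads, and *Ly6d* lies above *Ighm* only per kilobase.

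Per kilobase of exon, the order from the top was *Ly6d* (72461 reads per kilobase), *Ighm* (32870), *Cd8a* (2863), *Blnk* (899), *Cd8b1* (743), *Cd4* (152), *Cd79b* (81.1), *Ptcra* (48.3) and *Dntt* (10.9). The median of genes with reads was 59.6. In this order 0 of the 8 pairs of neighbours had a ratio whose exact binomial 95% interval held 1. The closest pair was *Blnk* and *Cd8b1*, with a ratio of 1.21 (95% CI, 1.13 to 1.29). In CPM, *Ighm* came before *Ly6d*, because the exons of *Ly6d* span 0.744 kb and those of *Ighm* 1.89 kb.

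**Figure D2:**
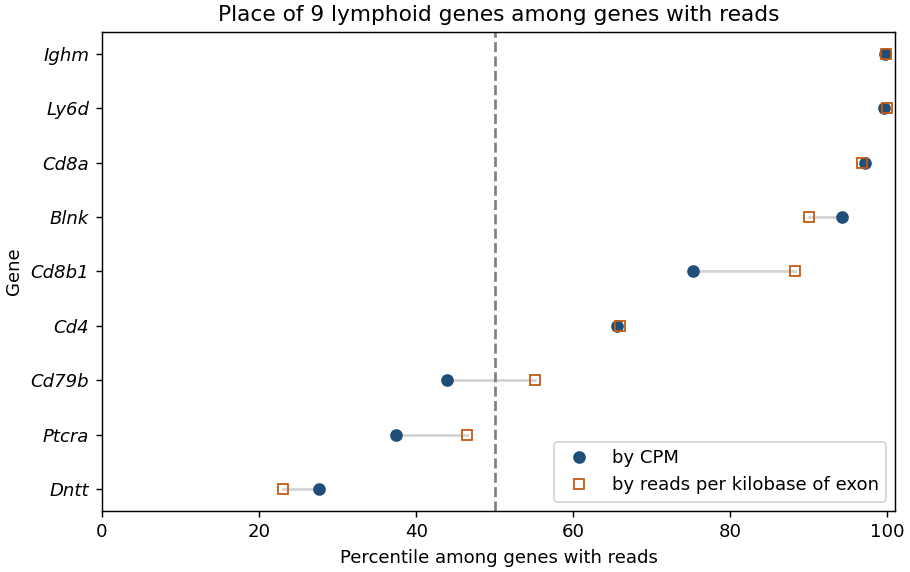
Percentile of the 9 lymphoid genes with reads among all genes with reads, by CPM (filled circles) and by reads per kilobase of exon (open squares), with a dashed line at 50. *Cd8b1* moves from 75.3 to 88.3 and *Cd79b* crosses the middle, from 43.9 to 55.2, while *Ighm*, *Ly6d* and *Cd8a* stay above 96.

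RefSeq promoters, 250 bases before to 50 after the start in GRCm38.p6, were at hand for 5 of the 10 genes. They were searched on both strands for the E boxes CAGCTG, which is the same on either strand, and CAGGTG, which is read as CACCTG on the other strand, the sites that E proteins such as TCF4 bind. Of the 5 promoters, 4 held an E box, as did 32.9% of all 32851 promoters. The 4 are shown because 2 belong to genes of high level (*Cd8a* and *Blnk*), 1 to a low gene (*Ptcra*) and 1 to the gene listed at 0 (*Rag1*), with E boxes in capitals, on chr6:71373177-71373476 (plus strand), chr19:40994172-40994471 (minus), chr17:46763663-46763962 (minus) and chr2:101649483-101649782 (minus).
Cd8a: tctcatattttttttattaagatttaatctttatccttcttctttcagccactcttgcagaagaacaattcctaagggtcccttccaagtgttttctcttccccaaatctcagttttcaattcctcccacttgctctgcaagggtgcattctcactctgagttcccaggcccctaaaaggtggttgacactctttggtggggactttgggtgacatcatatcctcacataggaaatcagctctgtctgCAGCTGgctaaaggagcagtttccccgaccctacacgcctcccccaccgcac
Blnk: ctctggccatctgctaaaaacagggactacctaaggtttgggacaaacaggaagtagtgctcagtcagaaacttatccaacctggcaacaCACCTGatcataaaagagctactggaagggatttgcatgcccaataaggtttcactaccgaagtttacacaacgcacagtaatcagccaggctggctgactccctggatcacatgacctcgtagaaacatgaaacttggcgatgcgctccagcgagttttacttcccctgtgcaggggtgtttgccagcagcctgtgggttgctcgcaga
Ptcra: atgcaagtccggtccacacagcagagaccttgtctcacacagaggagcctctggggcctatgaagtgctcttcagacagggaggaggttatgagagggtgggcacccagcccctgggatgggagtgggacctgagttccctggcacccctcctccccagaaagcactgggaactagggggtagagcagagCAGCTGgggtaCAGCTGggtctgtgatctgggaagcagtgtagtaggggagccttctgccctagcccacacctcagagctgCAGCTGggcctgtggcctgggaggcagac
Rag1: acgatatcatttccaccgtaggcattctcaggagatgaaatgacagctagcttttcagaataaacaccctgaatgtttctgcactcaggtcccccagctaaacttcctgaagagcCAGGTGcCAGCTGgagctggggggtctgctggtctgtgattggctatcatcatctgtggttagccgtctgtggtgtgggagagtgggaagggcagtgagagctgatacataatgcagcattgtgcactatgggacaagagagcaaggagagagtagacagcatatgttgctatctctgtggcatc
*Ptcra* held 3 copies of CAGCTG, of which 2 began 60 and 49 bases before the start and the other after it. *Rag1* held CAGGTG beginning 135 bases before its start and, a single base after it, CAGCTG beginning 128 bases before its start. The E box of *Cd8a* began 2 bases before the start and that of *Blnk* 160 bases before its RefSeq start. The whole *Blnk* window lies inside the deposited coordinates of the gene, 40928927 to 40994535. Its E box is thus not upstream of the deposited start. The promoter of *Dntt* had none. Thus E boxes were present in the windows of genes at both ends of the range, and these matches are letters only and do not show binding.

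The coreceptor genes were unequal. *Cd8a* was the highest of the 3, and the *Cd8b1* chain that pairs with it in T cells was lower. *Cd4* was the lowest. *Cd8a* (ENSMUSG00000053977.13) lies on the plus strand of chromosome 6, from 71373427 to 71379173, and its 10413 reads made 332 CPM (95% CI, 325 to 338) and percentile 97.1 of genes with reads. *Cd8b1* (ENSMUSG00000053044.8) lies on the plus strand of chromosome 6, from 71322788 to 71337494, and its 1102 reads made 35.1 CPM (95% CI, 33.1 to 37.2) and percentile 75.3. Per kilobase, *Cd8a* was 3.85 times *Cd8b1* (95% CI, 3.62 to 4.10), and without a length correction 9.45 times. The genes lie 35.9 kb apart. Another gene's transcripts held 6.28% of the 50-base windows of *Cd8b1*, with *Plpbp* the gene that shared the most, and 0.0815% of those of *Cd8a*, so reads of *Cd8b1* could have been split. CD8A can form homodimers without CD8B, and the CD8 chains mark subsets of murine pDCs, which a bulk library does not separate.

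*Cd4* (ENSMUSG00000023274.14) lies on the minus strand of chromosome 6, from 124864692 to 124888221, and its 611 reads made 19.5 CPM (95% CI, 18.0 to 21.1) and percentile 65.6. It was well below its neighbour *Lag3*, 16.1 kb away, an inhibitory receptor that binds MHC class II and is related to CD4. *Lag3* had 346 CPM and was 34.0 times *Cd4* per kilobase (95% CI, 31.3 to 36.9), or 17.8 times without a length correction. The other neighbour of *Cd4*, *Gpr162*, had 1.24 CPM. None of the 50-base windows of *Cd4* occurred in another gene.

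The T cell machinery around the coreceptors was present only in part. *Lck*, the kinase that CD4 and CD8A carry in T cells, had 13 reads, or 0.414 CPM (95% CI, 0.242 to 0.708). Its relative *Fyn* had 711 CPM, *Ptprc*, the phosphatase CD45, 808, and *Lcp2*, the adaptor SLP-76, 154. Of 17 genes of T cell receptor and coreceptor signalling, 13 had at least 3 reads, with a median of 1.24 CPM over the list. *Cd3e*, *Cd3d* and *Cd3g* were listed at 0. Of 16 T cell markers, 7 had at least 3 reads, with 42.8 CPM in sum, of which *Cd28* had 34.7, and *Trbc1*, *Trbc2*, *Bcl11b*, *Thy1*, *Cd6* and *Themis* were at 0 as well as the 3 CD3 chains. NK cell markers had at least 3 reads for 2 of 8, *Klrk1* with 256 CPM and *Klre1* with 1.24, and *Ncr1*, *Klrb1c*, *Klra8*, *Eomes*, *Prf1* and *Gzma* were at 0. The part of T cells in the coreceptor reads was not tested beyond these levels.

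*Ighm* was the gene of the 10 with the most reads, while the genes of the CD79 chains that signal for it had few. *Ighm* (ENSMUSG00000076617.9) encodes the constant part of the IgM heavy chain. It lies on the minus strand of chromosome 12, from 113418558 to 113422730, and its 61993 reads made 1974 CPM (95% CI, 1958 to 1989) and percentile 99.7. It held 91.6% (Wilson 95% CI, 91.4 to 91.8) of the 67657 reads on immunoglobulin constant genes. *Ighd*, which follows it in the locus and encodes IgD, had 422 reads, and per kilobase it had 222 against 32870 for *Ighm*.

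Reads on the other parts of the heavy chain locus were few. The 4 J segments had 305 reads together, with *Ighj1* at 169, *Ighj2* at 68, *Ighj4* at 41 and *Ighj3* at 27. Of 115 V genes, 5 had reads, 36 in all, with *Ighv3-6* the highest at 13, and of 17 D segments 2 had reads, 4 in all. Reads that cross a rearranged joint match no stretch of the germ line genome, and their loss in alignment was not tested. Of the light chain constant genes, *Igkc* had 1673 reads, *Iglc3* 754, *Iglc2* 80 and *Iglc1* 45. Per kilobase, *Igkc* had 3145 and *Iglc3* 1668, against 32870 for *Ighm*. *Iglv3* had 521 of the 608 reads on lambda V genes. Switched heavy chains had reads too, with *Ighg2b* at 1430 and *Ighg2c* at 1146, while *Ighg1* and *Igha* were listed at 0.

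**Figure D3:**
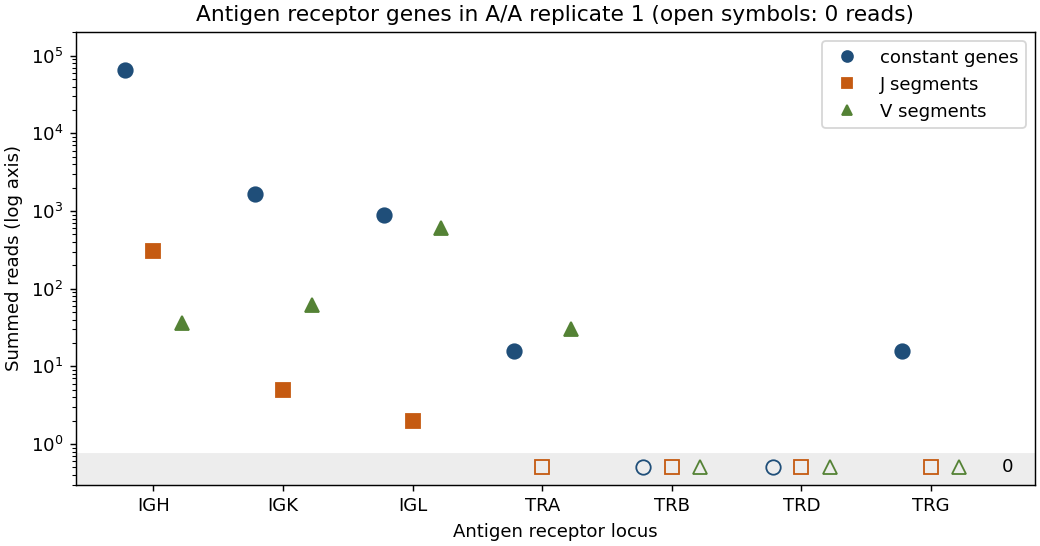
Summed reads on constant genes (circles), J segments (squares) and V segments (triangles) of each antigen receptor locus in A/A replicate 1, on a log axis with open symbols in the grey band for 0 reads. The heavy chain locus (IGH) had 65105 reads on constant genes, 305 on J and 36 on V segments, and the 4 T cell receptor loci together had 32 reads on constant genes.

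*Cd79b* (ENSMUSG00000040592.11), a signalling chain of the B cell receptor, lies on the minus strand of chromosome 11, from 106311341 to 106314762, and its 116 reads made 3.69 CPM (95% CI, 3.08 to 4.43) and percentile 43.9. Its partner *Cd79a* had 73 reads, or 2.32 CPM, and per kilobase *Cd79b* was 1.62 times *Cd79a* (95% CI, 1.20 to 2.20). Both were low beside *Ighm*. The neighbours of *Cd79b* in the genome, *Gh* and *Scn4a*, were listed at 0. B cell markers had at least 3 reads for 11 of 16, with 206 CPM in sum, from 0 to 113. *Cd37*, a tetraspanin of many leukocytes, gave 113 of these and *Igkc* 53.3, while *Ms4a1* (CD20) had 3.06 and *Ebf1* 1.11, and *Pax5*, *Cr2*, *Fcer2a*, *Vpreb3* and *Bank1* were listed at 0. Of 7 plasma cell markers 4 had at least 3 reads, with *Xbp1*, a factor of the secretory stress response, at 1203 CPM, *Sdc1* at 29.2, *Irf4* at 22.1 and *Prdm1* at 16.2. *Jchain*, *Mzb1* and *Tnfrsf17* were at 0. The part of B lineage cells in the *Ighm*, light chain, *Cd79b* and *Blnk* reads was not tested.

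*Blnk* (ENSMUSG00000061132.13), the adaptor that SYK phosphorylates below the B cell receptor, lies on the minus strand of chromosome 19, from 40928927 to 40994535, and its 5385 reads made 171 CPM (95% CI, 167 to 176) and percentile 94.2. It stood with a high set of signalling genes. Of 20 genes of B cell receptor signalling 18 had at least 3 reads, with a median of 66.4 CPM, and the most reads fell on *Pik3ap1* (437 CPM), *Lyn* (356), *Grb2* (350) and *Plcg2* (338). The kinases *Syk*, *Btk* and *Blk* had 45.4, 20.9 and 8.18 CPM. *Cd79a* and *Cd79b* stood at the low end, and *Cr2* and *Bank1* were listed at 0. Per kilobase, *Blnk* had 899, below *Plcg2* (2469), the lipase that it recruits, and above *Btk* (209) and *Syk* (152). The median of all protein-coding genes, those at 0 included, was 0.828 CPM, and that of genes with reads 6.34. Many of its genes also serve receptors other than the B cell receptor.

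*Ly6d* (ENSMUSG00000034634.7) encodes a small GPI-anchored surface protein that marks lymphoid progenitors committed towards the B lineage and progenitors of pDCs. It lies on the minus strand of chromosome 15, from 74762056 to 74763620, and its 53911 reads made 1716 CPM (95% CI, 1702 to 1731) and percentile 99.6. Per kilobase it was 2.20 times *Ighm* (95% CI, 2.18 to 2.23). No 50-base window of its transcripts occurred in another gene, and no exon of another gene overlapped it. In the Ly6 gene cluster around it, 8 of the 14 genes found by symbol (of 15 listed), *Ly6d* included, had at least 3 reads. That is close to the 55.5% of all protein-coding genes at this floor. Per kilobase, *Ly6d* (72461) was above *Ly6a*, or Sca-1 (32499), *Ly6e* (30034) and *Ly6c2* (13641), which are known to respond to interferon. The nearest neighbours were unequal, with *Lynx1* at 145 CPM and *D730001G18Rik* listed at 0. *Ly6k* had 3.31 CPM, and *Ly6g*, a neutrophil marker, *Ly6h*, *Gml*, *Slurp1*, *Lypd2* and *Gpihbp1* were at 0. High *Ly6d* thus stood in a cluster with other high genes and with genes listed at 0.

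The genes of receptor assembly were the lowest of the 10. *Dntt* (ENSMUSG00000025014.12) lies on the plus strand of chromosome 19, from 41029275 to 41059523, and its 25 reads made 0.796 CPM (95% CI, 0.539 to 1.18) and percentile 27.7. It is the genome neighbour of *Blnk*, 34.7 kb away, and *Blnk* was 82.4 times *Dntt* per kilobase (95% CI, 55.8 to 127), or 215 times without a length correction. *Opalin*, on the other side of *Dntt*, was listed at 0. *Blnk* and *Dntt*, neighbours in the genome, thus had very different levels.

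*Rag1* (ENSMUSG00000061311.6, chromosome 2, 101638282 to 101649501, minus strand) was listed at 0. If that 0 is a true count, the floor of 3 reads used here is 0.0955 CPM and the upper Wilson bound 0.122 CPM. Its partner *Rag2*, 5.75 kb away, had 1 read, or 0.0318 CPM, below the same floor. *Traf6*, a ubiquitin ligase of TLR signalling and the neighbour on the other side, had 91.3 CPM. A gene that overlaps *Rag1*, *B230118H07Rik*, had 86 reads, and 1.21% of the exon bases of *Rag1* lay in exons of another gene on the same strand. Of 16 genes of recombination and end joining 13, *Dntt* included, had at least 3 reads, against 55.5% of all protein-coding genes. The list also holds genes that every cell uses, such as *Xrcc5*, so this count is not particular to receptor assembly. The median was 7.04 CPM, with the most on *Hmgb2* (196), *Hmgb1* (117), *Dclre1c*, which encodes Artemis (83.6), and *Prkdc* (19.6). *Lig4* had 0.891 CPM and *Xrcc6*, the partner of the *Xrcc5* that was listed at 0, had 12.4.

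*Ptcra* (ENSMUSG00000036858.8) lies on the minus strand of chromosome 17, from 46755663 to 46763712, and its 62 reads made 1.97 CPM (95% CI, 1.54 to 2.53) and percentile 37.5, and 1.13% of its 50-base windows occurred in another gene. It had the most reads of the 5 genes of surrogate light chain and pre-T receptor. *Igll1*, the lambda 5 chain, had 8 reads, and *Vpreb1*, *Vpreb2* and *Vpreb3* were listed at 0. The constant genes of the beta chain, with which its protein pairs, were *Trbc1* and *Trbc2*, both listed at 0 as given above. Over all annotated T cell receptor segments, V genes had 34 reads, constant genes 32 (*Trac* and *Tcrg-C4* at 16 each) and the 70 J segments 0. Its neighbours *Cnpy3*, a chaperone of TLRs, and *2310039H08Rik* had 225 and 11.9 CPM.

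**Figure D4:**
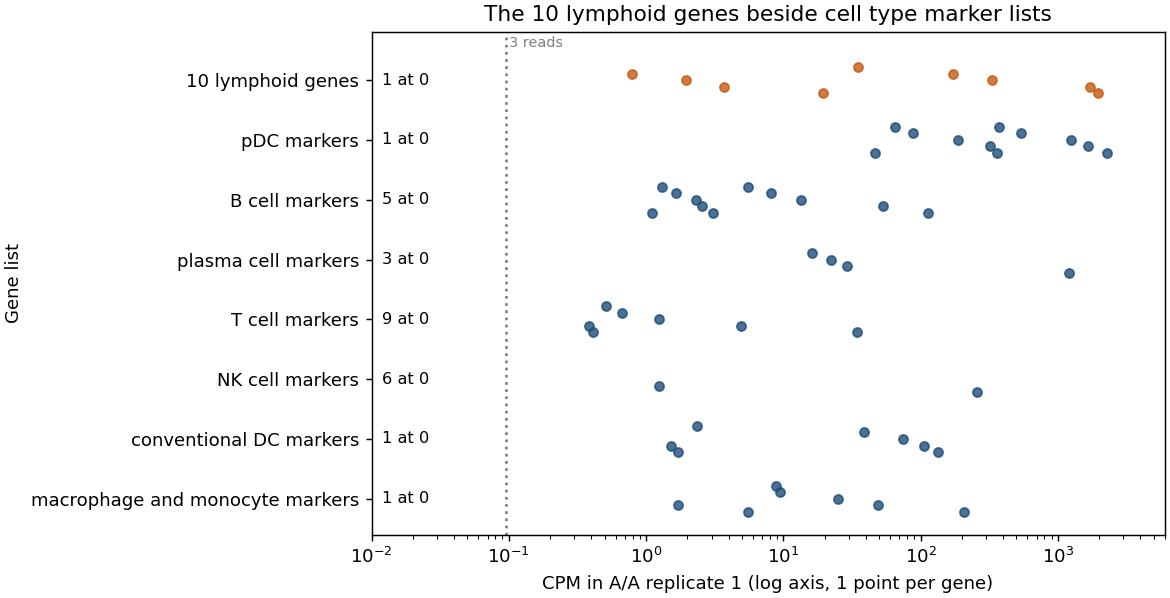
CPM of the 10 lymphoid genes (top) and of the genes of 7 marker lists in A/A replicate 1, with 1 point per gene on a log axis, the number of genes at 0 at the left and a dotted line at 3 reads. T cell markers had 9 of 16 genes at 0 and B cell markers 5 of 16, and pDC markers other than the single one at 0 lay between 46.2 and 2289 CPM.

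The lists of conventional DC markers and of macrophage and monocyte markers had reads for all but 1 gene each. Of 8 conventional DC markers 7 had at least 3 reads, with 359 CPM in sum and a median of 20.4. The highest were *Flt3* (135), *Zbtb46* (106), *Clec9a* (73.9) and *Itgax* (38.5). *Clec10a* (2.36), *Xcr1* (1.72) and *Batf3* (1.53) were low, and *Cd209a* was at 0. *Itgax* encodes CD11c, by which the pDCs were sorted, so it is not particular to conventional DCs. *Flt3* is also on the list of lymphoid progenitor genes below, so it is not particular to them either. How far the other genes of the list are particular to conventional DCs was not tested. Of 8 macrophage and monocyte markers 7 had at least 3 reads, with 307 CPM in sum, mostly *Lyz2* (207) and *Csf1r* (49.0), and *Vcan* was at 0. *Cd4* and *Cd8a* are known from DCs and macrophages other than pDCs as well, and the part of such cells in their reads was not tested.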

How the data were processed

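RNA-Seq was performed on R848-stimulated splenic pDCs, and 1 library of 9, A/A replicate 1, was analysed here. The authors deposited a normalized signal for each of 52550 genes, without a stated unit. Libraries were made with an mRNA kit and sequenced as 150 bp paired-end reads. The submitters' processing notes name HISAT2, StringTie and the builds mm8 and mm10 without roles, and the counting tool, annotation and use of strand are not given in the sources used here. Each deposited signal above 0 was a whole multiple of 1.19 (100% within 0.01 reads), so reads were recovered by division, 31408298 in all. Recovery was tested on 3 simulated libraries of 52550 genes, with 100% of reads returned. The simulated counts were whole by construction, so this checks the code only. Whether 1 step of the deposited signal is a read or a read pair was not tested.

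CPM were reads over that total, times 1000000. Gene IDs matched GENCODE M21 (GRCm38) for 99.7%, and 95.2% of matched genes had the same coordinates. Exon length was the union of annotated exons. Wilson intervals were used for levels and shares, and exact binomial intervals of the 2 counts for ratios. Genes at 0 kept the value 0 in levels and medians, and the floor of 3 reads was a threshold and a place to draw *Rag1*. The planned ratios of *Ptcra* to *Cd3e* and of *Rag1* to *Rag2* were to set a gene at 0 to the floor. They are not given, because *Cd3e* and *Rag1* were listed at 0 and a listed 0 may not be a true count. Named were all 10 genes, their fixed partners and genome neighbours, and of each list up to 4 genes with the most reads and the markers at 0. Some further list genes were named after their values were seen, and some genes of the lists are not reported here. The members and lists were chosen with earlier results of these data known. Alternatives were the library total, pseudocount (1 or 0.1 CPM), percentile background, floor (1 or 10 reads) and transcript length. The tools were matplotlib 3.10.9, pandas 2.3.3, scipy 1.17.1 and numpy 2.4.6 under Python 3.11.15.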

Additional observations from a re-analysis of the deposited data

How the results depend on the processing

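No paired analysis was possible because A/A replicate 1 has no partner among the values used. The count of lymphoid genes with reads was 9 with a floor of 1, 3 or 10 reads, and 6 of the 10 lay above the median gene by CPM, also among protein-coding genes, and 7 per kilobase. Their order per kilobase was unchanged with the longest annotated transcript as length. The median of the 10 genes, 27.3 CPM, became 30.2 when the 10 genes with the most reads were left out of the total, a rise by construction. The median percentile of the 9 genes with reads, 75.3, was 91.7 among all genes, 65.2 among protein-coding genes with reads, 69.8 among genes with at least 10 reads and 88.3 per kilobase. The first 3 differ because the background differs, and the last because levels were divided by exon length. The median gene was *Cd8b1*, with exons of 1.48 kb, both by CPM and per kilobase. The ratio of *Cd8a* to *Cd8b1* was 4.48 with the longest transcript and 9.45 with no length, that of *Lag3* to *Cd4* 27.6 and 17.8, and that of *Blnk* to *Dntt* 215 with no length. With at least 10 reads, 1 of the 5 surrogate light chain and pre-T receptor genes remained. The directions of these ratios were kept. With 1 library there is no replicate error, and *Dntt* (25 reads), *Ptcra* (62) and *Cd79b* (116) had the widest intervals relative to their levels.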

Other observations

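Factors that act in lymphoid development were read for 24 of 28 genes of a list, with a median of 22.8 CPM. The most reads fell on *Spib* (2289 CPM), *Spi1*, which encodes PU.1 (537), *Tcf4* (358) and *Runx2* (189). The E protein genes *Tcf3* and *Tcf12* had 65.6 and 63.0 CPM, and their inhibitors *Id2* and *Id3* had 145 and 35.6. The other factors of the list ranged from 0 to 100 CPM (*Hhex*). Among them, *Bcl11a* had 90.6 CPM, *Runx3* 78.4, *Ikzf1* 76.0, *Foxo1* 21.7, *Tcf7* 13.5 and *Zbtb7b* 8.41. *Ebf1* had 1.11 and *Gata3* 0.159 (5 reads), and *Pax5*, *Lef1*, *Tox* and *Erg* were listed at 0.

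In the Notch pathway, through which *Ptcra* is induced in thymocytes, 8 of 10 genes had at least 3 reads, with *Notch2* at 295 CPM, *Rbpj* at 44.3 and *Notch1* at 28.0, while the targets *Hes1* and *Nrarp* were listed at 0 and *Dtx1* had 9 reads. Of 12 genes of lymphoid progenitors 10 had at least 3 reads. The median of the list was 9.49 CPM. *Ly6a*, named above as responding to interferon, had 1247 CPM, *Il2ra* 277, *Il7r*, the receptor of a lymphoid growth factor, 174, *Flt3* 135 and *Kit* 25.9. *Satb1* had 14.5 CPM, *Cd27* 4.46, *Cd24a* 3.98, *Cd93* 2.71 and *Bst1* 0.923, and *Cd34* and *Mme* were listed at 0.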
